A study of Mus musculus with 6 samples.

Results

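Granins and the enzymes that process prohormones were followed through KCl depolarisation of cultured mouse hippocampal neurons. The genes were chosen by name: the granin family genes Chga, Chgb, Scg2, Scg3, Scg5 and Vgf, the prohormone convertase genes Pcsk1 and Pcsk2, and the carboxypeptidase E gene Cpe. All 9 had values among the 21553 genes with values. The cells came from the hippocampus of E16.5 C57bl/6 mouse embryos and had spent 10 days in culture. There were 3 groups of 2 libraries: untreated neurons, neurons exposed to KCl at 55 mM for 0.5 h, and neurons exposed to it for 3 h. Raised KCl depolarises the whole culture at once, so neurons and any other cells in the dish were exposed alike. The submitters describe biological duplicates but not whether these were separate animals or cultures, and p-values therefore measure only the spread between these samples.

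Granins are acidic proteins of the regulated secretory pathway. They gather with peptide precursors in the trans-Golgi network and help to form dense core vesicles, from which neurons release peptides when calcium enters. Inside the vesicle the convertases cut precursors at pairs of basic residues, and carboxypeptidase E then trims the basic residues left at the new ends. Several granins, Vgf and Scg2 among them, are themselves cut into signalling peptides, and Vgf and Scg2 are known as activity-regulated genes in neurons.

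The libraries held 98882007 to 141865913 counts, so counting error was small for each of the 9 genes, whose lowest count in any library was 2431. Fos, a rapid response transcription factor gene taken as a check of the labels, rose: it stood at 7.98 and 8.14 cRPKM (the authors' read count scaled for gene length and library size) in the untreated libraries, 237 and 223 at 0.5 h and 344 and 271 at 3 h. All 10 pan-neuronal markers were present, with summed levels of 1393 to 2246 cRPKM, and so were all 9 astrocyte markers, at 1040 to 2208. None of the 9 microglial markers reached 1 cRPKM in any library. Markers of other cell types were present too: 9 oligodendrocyte lineage markers summed to 198 to 305 cRPKM, with Olig1 alone at 137 to 232. The 7 progenitor markers summed to 72.3 to 105 and the 6 fibroblast markers to 29.2 to 44.1, with Dcn alone at 20.1 to 42.1. The replicates differed in make-up: Gfap, an astrocyte filament gene, was at 22.4 to 24.6 cRPKM in the libraries numbered 1 and at 307 to 475 in those numbered 2. In bulk RNA, fewer cells of a type and less RNA per cell cannot be told apart.

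In the untreated libraries these transcripts, apart from that of Pcsk1, were at high levels. Cpe stood far above the rest at 923 and 1412 cRPKM, at percentile 99.9 of the genes tested. The granins formed a narrow band below it: mean levels were 112 cRPKM for Vgf, 111 for Scg3, 87.0 for Chgb, 84.5 for Scg5, 75.6 for Chga and 62.5 for Scg2. Neighbours in that order overlapped in their 2 libraries except that both libraries of Scg3 were above both of Chgb, so most of the order within the band was not resolved. Pcsk2 followed at 37.7 and 43.6 cRPKM, below both libraries of every granin. Pcsk1 was the lowest at 6.83 and 11.9 cRPKM, near the middle of all genes tested (percentile 54.2). The untreated libraries differed most for Vgf, 2.04-fold, Scg2, 1.81-fold, and Pcsk1, 1.74-fold, each higher in replicate 2, and least for Scg3, at 1.09-fold.

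**Figure D1:**
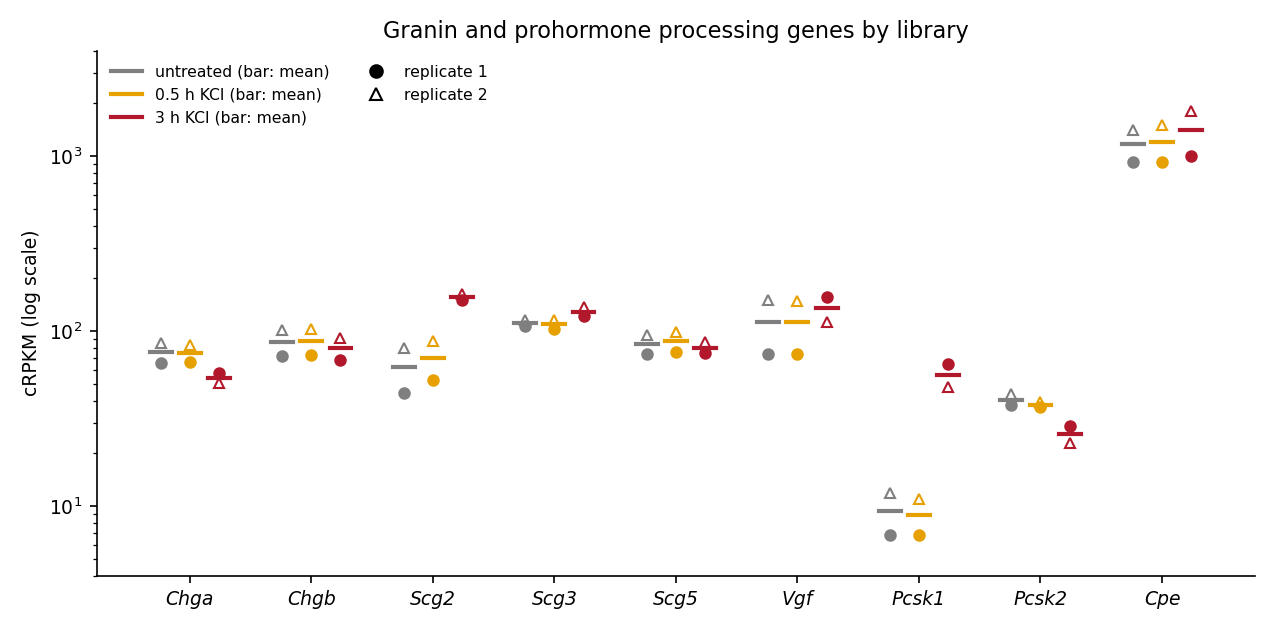
Level of each gene in each library, in cRPKM on a log axis; filled circles are replicate 1, open triangles replicate 2, and bars the mean of the 2 libraries of a group. Pcsk1, Scg2 and, by a small margin, Scg3 stand higher at 3 h than in the other 4 libraries, Pcsk2 and Chga lower, and the groups overlap for Vgf, Scg5, Chgb and Cpe.

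After 0.5 h of KCl none of the 9 genes passed the test. For every one of them the 0.5 h libraries overlapped the untreated libraries. Pcsk1 was at 6.79 and 11.01 cRPKM against 6.83 and 11.9 in untreated neurons, and Vgf at 73.7 and 149 against 73.8 and 150. Log2 changes ran from −0.12 ± 0.16 (SE) for Pcsk2 to 0.14 ± 0.33 for Scg2, all with an adjusted p of 1 in edgeR's quasi-likelihood test with Benjamini-Hochberg adjustment, which is used throughout. Over all genes tested 0.0377% were called, so a count of 0 of 9 is near the background. At an unadjusted p under 0.05 the count was also 0, against 0.805% of all genes, and DESeq2 called 0, against 0.233%. Groups that did not overlap made up 21.2% of all genes in this comparison, and 0 of the 9. The 95% interval was narrowest for Scg3, at −0.30 to 0.21 on the log2 scale, and widest for Vgf, at −1.14 to 1.08. Fitting the replicate number as a block also called 0 of the 9, against 13 higher and 0 lower among all 15895 genes. The SE was then smaller for some genes (0.10 against 0.36 for Cpe, 0.07 against 0.23 for Chgb). It changed little for others (0.33 against 0.34 for Pcsk1).

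At 3 h, 2 of the 9 were called higher, Pcsk1 and Scg2, and 0 lower, with adjusted p under 0.05. The share of all 15895 genes tested was 8.71% higher and 6.84% lower (1384 and 1088 genes; 1115 and 1340 when scaled by library totals alone). With the replicate number as a block, 3 were higher (Pcsk1, Scg2 and Scg3; 18.6% of all genes) and 1 lower (Pcsk2; 18.6%). DESeq2 gave the same counts of 3 and 1, against 14.3% and 11.7% of all genes. The median log2 change was 0.27 over the 9 genes and −0.02 over all genes; the median over the 9 was −0.08 without untreated replicate 1, −0.07 without 3 h replicate 2 and 0.08 without 3 h replicate 1. The 3 h libraries lay wholly above the untreated ones for Pcsk1, Scg2 and Scg3 (24.1% of all genes) and wholly below them for Pcsk2 and Chga (35.9%). Both comparisons with untreated neurons share the same untreated libraries.

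**Figure D2:**
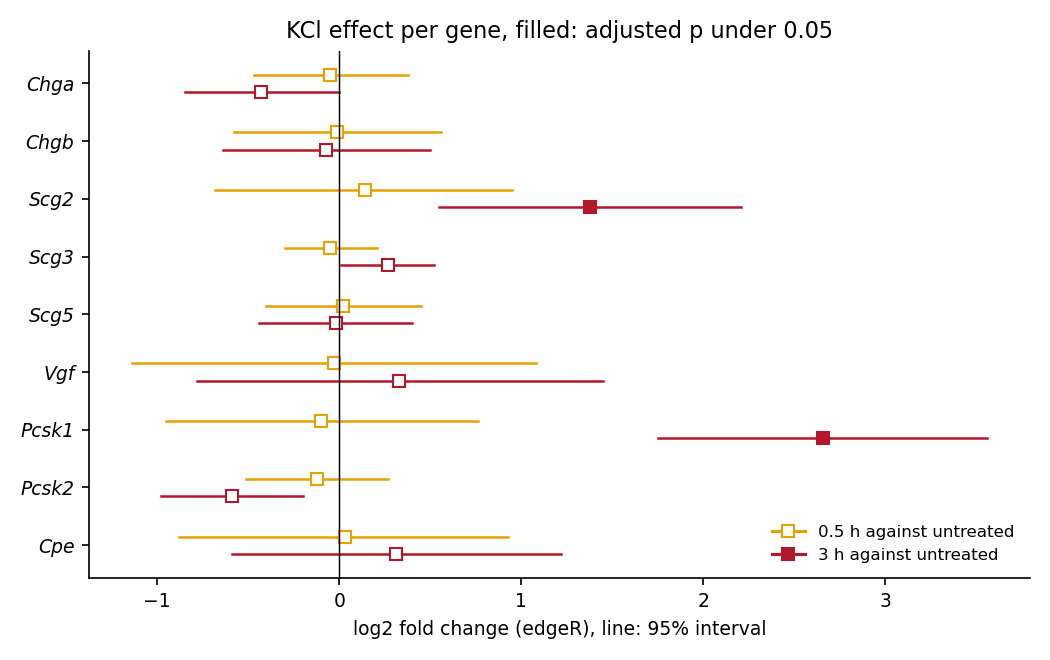
Log2 fold change of each gene at 0.5 h and at 3 h against untreated neurons, from edgeR; lines are 95% intervals and filled squares mark an adjusted p under 0.05. Pcsk1 and Scg2 at 3 h are filled, and every 0.5 h interval spans 0.

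Among the granins, Scg2 (ENSMUSG00000050711), which encodes secretogranin II, the precursor of secretoneurin, rose at 3 h. It stood at 44.5 and 80.6 cRPKM in untreated neurons, 52.5 and 87.5 at 0.5 h, and 150 and 164 at 3 h. Both 3 h libraries were about level with each other, unlike those of the earlier groups, and both were above all 4 others. The log2 change at 3 h was 1.38 ± 0.34, a 2.61-fold rise (adjusted p = 0.046; 0.0085 with the replicate block). Within replicate 1 the cRPKM rose 3.38-fold and within replicate 2 it rose 2.03-fold. Between the times the log2 difference was 1.25 ± 0.33 (adjusted p = 0.069; 0.013 with the block). The call at 3 h depended on single libraries: the adjusted p was 0.15 without untreated replicate 1, 0.086 without untreated replicate 2, 0.090 without 3 h replicate 1 and 0.12 without 3 h replicate 2. It was 0.054 with library totals and 0.055 or 0.061 in limma on log2 cRPKM.

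Vgf (ENSMUSG00000037428), whose product yields several neuropeptides, did not pass in any comparison. Its levels were 73.8 and 150 cRPKM in untreated neurons, 73.7 and 149 at 0.5 h, and 157 and 113 at 3 h. Replicate 2 was the higher library in untreated neurons and at 0.5 h and was the lower one at 3 h. Within replicate 1 the level at 3 h was 2.13-fold that of untreated neurons, and within replicate 2 it was 0.75-fold, so the direction differed between the replicates. The log2 difference was 0.33 ± 0.45 (adjusted p = 0.64), with a 95% interval of −0.78 to 1.45. Without untreated replicate 1 it was −0.08.

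Scg3 (ENSMUSG00000032181), which encodes a granin that binds chromogranin A and cholesterol-rich vesicle membrane, was the steadiest between replicates. It stood at 107 and 116 cRPKM in untreated neurons, 103 and 116 at 0.5 h, and 122 and 137 at 3 h. The 3 h libraries were the highest pair, by a small margin. The log2 difference was 0.27 ± 0.10 (adjusted p = 0.13; 0.035 with the block, and 0.033 in DESeq2). The gene was not called with library totals (0.24), in limma on log2 cRPKM (0.23 and 0.22) or without the filter (0.16). No fit with a library left out called it. Each replicate moved by a similar amount, 1.14-fold and 1.17-fold.

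Neither chromogranin gene passed the test at 3 h. Chga (ENSMUSG00000021194), which encodes chromogranin A, stood at 66.0 and 85.3 cRPKM in untreated neurons, 66.2 and 82.7 at 0.5 h, and 57.2 and 50.8 at 3 h. Both 3 h libraries were below the other 4, and the fitted log2 difference was −0.43 ± 0.17 (adjusted p = 0.14, or 0.098 in the blocked fit). Chgb (ENSMUSG00000027350), which encodes chromogranin B, was at 72.2 and 102 cRPKM, 73.4 and 102, and 68.3 and 91.5 in the same order. Its groups overlapped, and its log2 difference at 3 h was −0.07 ± 0.23 (adjusted p = 0.85; 95% interval −0.64 to 0.50). Scg5 (ENSMUSG00000023236), which encodes the chaperone and inhibitor of the convertase made by Pcsk2, was at 73.7 and 95.4, 75.5 and 99.3, and 74.5 and 86.4 cRPKM. Its log2 difference at 3 h was −0.02 ± 0.17 (adjusted p = 0.95; 95% interval −0.44 to 0.40).

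Shares of the granin transcripts are given as a description. Scg2 made up 10.2% and 12.8% of the summed cRPKM of the 6 granins in untreated neurons, 11.8% and 13.7% at 0.5 h, and 23.9% and 25.5% at 3 h. Chga made up 15.1% and 13.5%, then 14.9% and 13.0%, then 9.10% and 7.91%. The ratio of Scg2 to Chga was 0.674 and 0.944 in untreated neurons and 2.62 and 3.22 at 3 h, so that both 3 h libraries stood above 1, as did 1 of the 0.5 h libraries, at 1.06. The sum itself was 437 and 630 cRPKM in untreated neurons and 629 and 642 at 3 h, and these ranges overlapped.

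**Figure D3:**
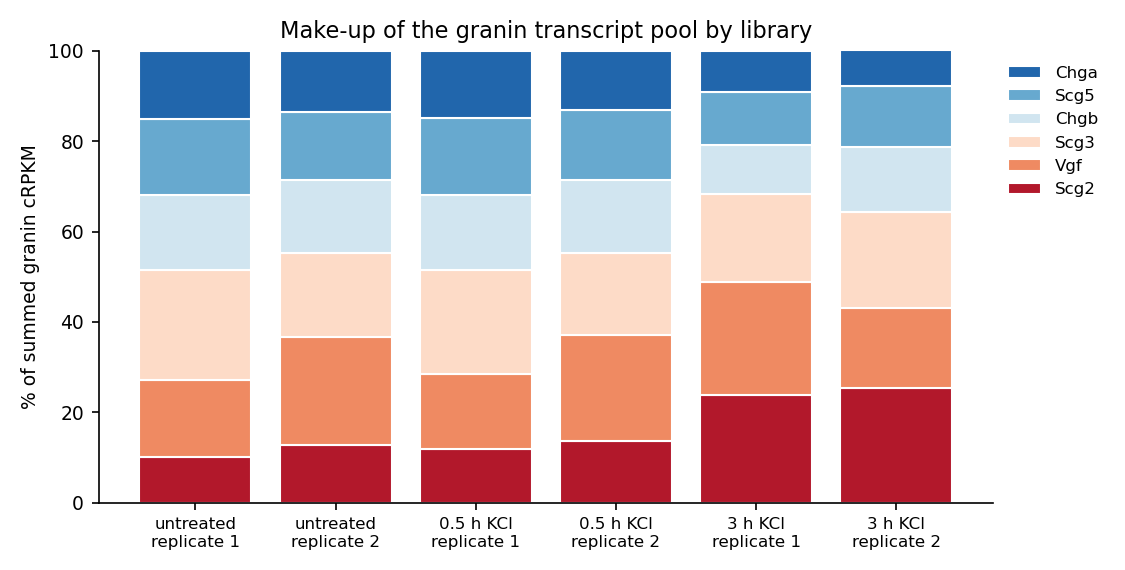
Share of each of 6 granin genes in their summed cRPKM, in percent, for each library. Scg2 (bottom) takes 10.2% to 13.7% in the untreated and 0.5 h libraries and 23.9% and 25.5% at 3 h, and Chga (top) takes at least 13.0% there and at most 9.10% at 3 h.

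Of the convertase genes, Pcsk1 rose and Pcsk2 had lower values at 3 h. Pcsk1 (ENSMUSG00000021587), whose product makes the early cuts in many prohormones, had the largest change of the 9. It stood at 6.83 and 11.9 cRPKM in untreated neurons, 6.79 and 11.01 at 0.5 h, and 65.0 and 47.8 at 3 h. Both 3 h libraries were far above the other 4, which overlapped. The log2 change at 3 h was 2.66 ± 0.36, a 6.30-fold rise (adjusted p = 0.013), with a 95% interval of 1.75 to 3.56. Between 0.5 h and 3 h it rose by 2.75 ± 0.37 (adjusted p = 0.016), and it was the only one of the 9 called in that comparison, in which 6.39% of all genes were called higher and 4.87% lower. With the replicate block Scg2 and Scg3 were called higher there too and 0 lower, against 15.6% of all genes each way. DESeq2 called 3 higher and 1 lower, against 12.2% and 10.1%. Within replicate 1 Pcsk1 rose 9.51-fold from untreated to 3 h, and within replicate 2 it rose 4.02-fold. Without untreated replicate 1 or replicate 2 the adjusted p at 3 h was 0.069 and 0.064, and without a 0.5 h library that between the times was 0.10 and 0.088.

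Pcsk2 (ENSMUSG00000027419), whose product makes later cuts that release small peptides, stood at 37.7 and 43.6 cRPKM in untreated neurons, 36.6 and 39.5 at 0.5 h, and 28.8 and 23.0 at 3 h. Both 3 h libraries were below the other 4. The log2 difference was −0.59 ± 0.16 (adjusted p = 0.059). The gene was called lower with the replicate block (−0.60 ± 0.16, adjusted p = 0.038) and in DESeq2 (0.0083). It was also called lower with library totals (0.037) and in limma on log2 cRPKM (0.039 and 0.041). It was not called without the filter. Of the fits with a library left out, only that without 3 h replicate 1 called it lower. Within replicate 1 the level was 0.764-fold that of untreated neurons and within replicate 2 it was 0.526-fold. Annotated antisense transcripts share 3.29% (Pcsk2os1) and 1.25% (Pcsk2os2) of the exon bases of Pcsk2, and the library kit does not mark strand, so reads from these stretches cannot be assigned to one or the other.

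The ratio of Pcsk1 to Pcsk2 was 0.181 and 0.272 in untreated neurons, 0.186 and 0.279 at 0.5 h, and 2.26 and 2.08 at 3 h. Pcsk2 transcripts thus outnumbered those of Pcsk1 per unit length in all 4 earlier libraries, and those of Pcsk1 outnumbered Pcsk2 in both 3 h libraries. With 2 libraries against 2, an exact two-sided permutation test cannot go below p = 0.333, and the ratio is given as a description.

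**Figure D4:**
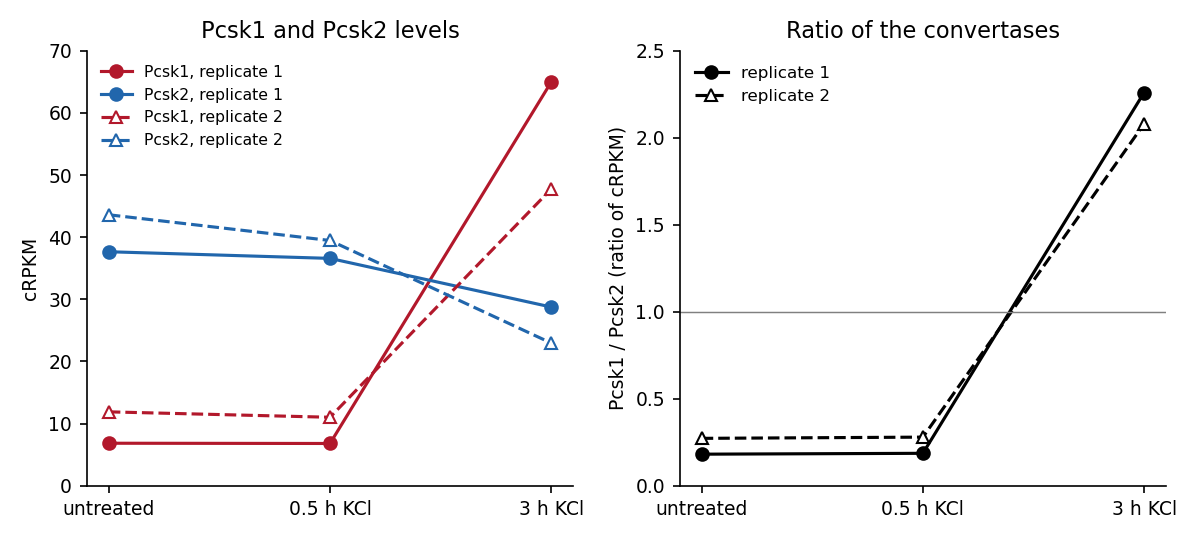
Left, cRPKM of Pcsk1 and Pcsk2 in each library; right, their ratio, with a line at 1; lines join libraries of the same replicate number, which are separate samples. Pcsk1 is below Pcsk2 in all untreated and 0.5 h libraries and above it at 3 h, where the ratio is 2.26 and 2.08.

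Promoters were read for sites of activity-regulated factors. RefSeq start sites of build GRCm38.p6 were found for 7 of the 9 genes: Scg2, Scg3, Scg5, Chga, Chgb, Pcsk1 and Pcsk2. The 150 bases before the start are shown 5′ to 3′ on the gene's strand for the 2 genes called at 3 h and for a relative of each that was not called higher. Capitals mark the cyclic AMP response element (CRE, TGACGTCA), the site of CREB family factors, or the shorter TGACG, its core, on either strand.
Pcsk1 (chr13:75089707-75089856, plus strand): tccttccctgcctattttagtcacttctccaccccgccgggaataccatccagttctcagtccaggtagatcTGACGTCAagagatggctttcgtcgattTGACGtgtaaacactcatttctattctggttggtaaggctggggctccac
Scg2 (chr1:79440027-79440176, minus strand): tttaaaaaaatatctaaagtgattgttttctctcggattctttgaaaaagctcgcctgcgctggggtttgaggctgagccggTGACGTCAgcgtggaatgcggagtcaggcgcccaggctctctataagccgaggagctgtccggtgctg
Chgb (chr2:132781492-132781641, plus strand): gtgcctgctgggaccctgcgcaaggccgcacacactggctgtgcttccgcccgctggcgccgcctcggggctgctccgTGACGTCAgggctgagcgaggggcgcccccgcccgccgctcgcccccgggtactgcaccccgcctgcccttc
Pcsk2 (chr2:143545983-143546132, plus strand): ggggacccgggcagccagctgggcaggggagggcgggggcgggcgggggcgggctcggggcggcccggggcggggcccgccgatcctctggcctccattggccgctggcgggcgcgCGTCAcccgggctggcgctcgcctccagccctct

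A full CRE begins 78 bases before the start of Pcsk1, 68 before that of Scg2 and 72 before that of Chgb. Pcsk1 holds a further TGACG 50 bases before the start, and Pcsk2 a single one 34 bases before it. Counted over 250 bases before to 50 after the start and on both strands, a full CRE was present in 3 of the 7 promoters and in 1.79% of 32851 promoters in the same table, and TGACG, which every full CRE contains, in 7 of 7 and in 20.8%. Chgb, whose promoter carries the full site at nearly the same place as that of Scg2, was at 79.9 ± 16.4 cRPKM and Scg2 at 157 ± 9.48 at 3 h (SD, n = 2), against 87.0 ± 21 and 62.5 ± 25.5 in untreated neurons. The 150 bases had a GC content of 50% for Pcsk1, 52% for Scg2, 77.3% for Chgb and 84% for Pcsk2. The part of these sites and of base composition in the levels of the genes was not tested. The AP-1 site TGANTCA was in none of the 7 promoters and in 7.81% of all. The core TTCAGCACC of the site for the neuronal gene repressor REST was in 1 of the 7, 7 bases before the start of Scg2, and in 0.371% of all. A match is a description of letters and does not show that a factor binds.

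Cpe (ENSMUSG00000037852), which encodes the enzyme that trims peptide ends, did not pass in any comparison. It stood at 923 and 1412 cRPKM in untreated neurons, 922 and 1496 at 0.5 h, and 997 and 1814 at 3 h. Replicate 2 was 1.53-fold to 1.82-fold higher than replicate 1 in each group. The log2 difference at 3 h was 0.31 ± 0.36 (adjusted p = 0.59; 0.068 with the block, which gave 0.29 ± 0.10), and without 3 h replicate 2 it was −0.11. Cpe is known to be made by astrocytes as well as neurons. The summed level of the 9 astrocyte markers was 1040 and 1540 cRPKM in untreated neurons, 1045 and 1677 at 0.5 h, and 1084 and 2208 at 3 h, and Cpe was 0.822 to 0.920 times that sum in every library. Without Gfap, the marker that differed most between replicates, Cpe was 0.903 to 1.14 times the sum of the other 8. None of the 9 markers was at 0. At 3 h 0 passed the test, against 8.71% of all genes higher and 6.84% lower. With the block 4 were higher and 0 lower, against 18.6% of all genes each way. The part of these markers in the level of Cpe was not tested.

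**Figure D5:**
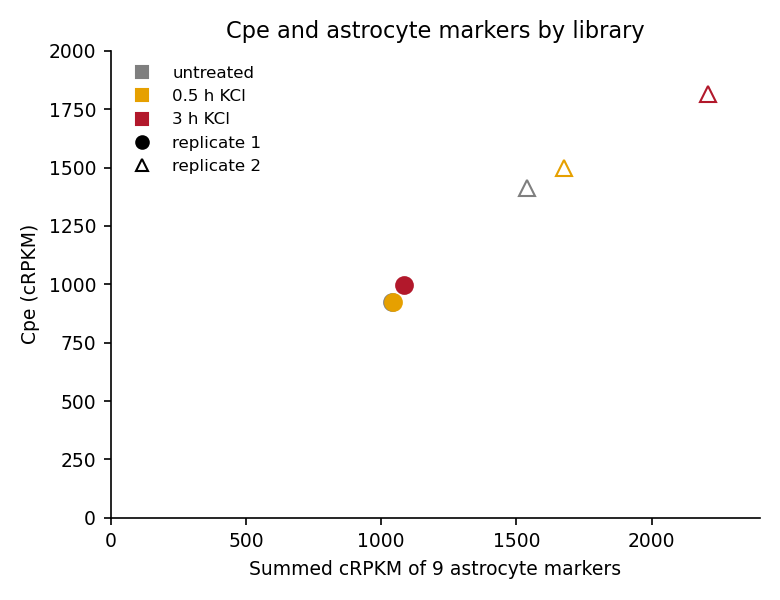
Level of Cpe against the summed level of 9 astrocyte markers, both in cRPKM, for the 6 libraries; circles are replicate 1 and triangles replicate 2. The replicate 1 libraries sit together at 1040 to 1084 on the marker axis (the untreated circle lies under the 0.5 h one), and the replicate 2 libraries lie higher on both axes.

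Neuronal marker sums also differed between the groups. The summed level of the 10 pan-neuronal markers was 2246 and 2096 cRPKM in untreated neurons and 1890 and 1393 at 3 h, and that of the 8 excitatory neuron markers was 421 and 556, then 357 and 296. Within the pan-neuronal list Tubb3, a tubulin gene singled out after its values were seen, was at 607 and 453 cRPKM in untreated neurons and 253 and 158 at 3 h. The other 9 pan-neuronal markers summed to 1639 and 1642, then 1637 and 1235, so without Tubb3 the sum was lower in replicate 2 and almost level in replicate 1. The 10 interneuron markers summed to 354 and 573 in untreated neurons, 341 and 554 at 0.5 h, and 266 and 372 at 3 h. None of these lists had a gene called at 3 h without the block. With it, 2 of 10, 1 of 8 and 6 of 10 genes respectively were lower, and 1 interneuron marker was higher, against 18.6% of all genes each way. Between untreated neurons and 3 h, the excitatory and interneuron sums were lower within both replicate numbers, as was the pan-neuronal sum with Tubb3. The levels of Pcsk2, Chga and Chgb were lower within both too, by little for Chgb (0.946-fold and 0.898-fold). The part of these sums in the levels of the 9 genes was not tested.

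The remaining genes of prohormone processing mostly did not pass. Of 14 such genes 1 was called higher at 3 h and 0 lower, with a median log2 change of −0.05, beside 8.71% and 6.84% of all genes and a median of −0.02. The count is near the background. The gene called was Ctsl, which encodes cathepsin L, a lysosomal protease also reported to cut prohormones. It rose from 68.4 and 69.6 cRPKM to 86.3 and 108 (0.54 ± 0.11, adjusted p = 0.031), and it was not called without either untreated library (0.16 and 0.20), without either 0.5 h library (0.072 and 0.070), with library totals or in limma at either pseudocount. Pcsk7, a widely made convertase, differed by 0.34 ± 0.10 on the log2 scale (adjusted p = 0.076, and 0.043 in the blocked fit), Mbtps1, a Golgi protease, −0.28 ± 0.10 (0.13) and Furin, the convertase of the constitutive pathway, −0.24 ± 0.09 (0.13). Named for their roles after the values were seen, Pcsk1n, which encodes an inhibitor of the convertase made by Pcsk1, stood at 85.1 and 104 cRPKM in untreated neurons and 76.4 and 64.9 at 3 h (−0.36 ± 0.19, adjusted p = 0.24). Pam, the peptide amidating enzyme gene, stood at 47.0 and 68.0, then 69.5 and 69.0 (0.33 ± 0.22, adjusted p = 0.34).

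Of 45 genes of dense core vesicle formation, transport and release, 3 were higher and 1 lower at 3 h, beside 8.71% and 6.84% of all genes, with a median log2 change of −0.28. With library totals and in limma at either pseudocount, 2 were higher and 3 lower. DESeq2 gave 3 and 5, against 14.3% and 11.7% of all genes. The balance over all genes also turned with library totals (1115 higher and 1340 lower). It did so in limma as well (1023 and 1229 with a pseudocount of 0.1, 956 and 1191 with 1). Those that rose were Syt4, a synaptotagmin of peptide vesicles, from 117 and 104 cRPKM to 235 and 163 (0.91 ± 0.22, adjusted p = 0.047), Tgoln1, a trans-Golgi protein gene (0.93 ± 0.21, 0.038), and the lipid kinase gene Pi4k2a (0.49 ± 0.09, 0.026). Cyb561, which encodes the vesicle cytochrome that supplies electrons for peptide amidation, fell from 18.6 and 17.8 to 10.8 and 9.64 cRPKM (−0.77 ± 0.12, adjusted p = 0.017). With the replicate block 3 were higher and 9 lower, against 18.6% of all genes each way. None of the 4 kept its call without either untreated library, and Cyb561 alone kept it without either 0.5 h library. Tgoln1 also lost its call without 3 h replicate 2 (0.073) and Syt4 without 3 h replicate 1 (0.055).

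Of 48 neuropeptide, neurotrophin and related genes, 41 had enough counts to be tested. At 3 h, 3 were higher and 2 lower, beside 8.71% and 6.84% of all genes, with a median log2 change of 0.02. Bdnf, whose protein travels in dense core vesicles, rose from 7.0 and 11.7 cRPKM to 55.5 and 42.4 (2.45 ± 0.34, adjusted p = 0.013). The others called higher, Cartpt (2.74 ± 0.34, adjusted p = 0.010) and Oxt (2.76 ± 0.66, 0.045), were at or below 1.12 cRPKM in every library and are named after their values were seen. The neurexophilin genes Nxph1 (−0.69 ± 0.12, 0.024) and Nxph2 (−0.86 ± 0.18, 0.033) fell. Nrn1, an activity-regulated neuritin, stood at 26.3 and 45.2, then 111 and 77.2 cRPKM (1.46 ± 0.37, adjusted p = 0.052; 0.030 with the block). None of the 5 calls held without either untreated library, and with the block the counts were 7 higher and 11 lower, against 18.6% of all genes each way. Oxt also lost its call without any one of the other libraries (0.082 to 0.11), and the neurexophilins lost theirs without some of them (Nxph1 without either 3 h library, 0.053 and 0.054; Nxph2 without either 0.5 h library, 0.067 and 0.065, or 3 h replicate 2, 0.089).

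The genes whose pattern over the 6 libraries was most like that of a called member were sought among 7004 others with a mean of at least 10 cRPKM, by Pearson correlation of log2 values. For Pcsk1 these were Bdnf (r = 0.999), Mbnl2, a splicing regulator gene (0.997), and Ppp2ca, a phosphatase subunit gene (0.997). Bdnf matched Pcsk1 in level as well, at 7.0 and 11.7 cRPKM against 6.83 and 11.9 in untreated neurons, 7.47 and 11.8 against 6.79 and 11.01 at 0.5 h, and 55.5 and 42.4 against 65.0 and 47.8 at 3 h. For Scg2 they included Actn4, an actin crosslinking protein gene (0.993), and Ppp2r5a, a phosphatase regulatory subunit gene (0.992), whose log2 differences at 3 h were 0.24 ± 0.09 and 0.39 ± 0.11, neither of which passed (adjusted p = 0.12 and 0.063). All these libraries share their groups and replicate make-up, so a correlation over 6 points describes a shape only.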

How the data were processed

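RNA was sequenced in 6 libraries of cultured neurons. The authors deposited, for each of 22667 Ensembl genes, a cRPKM (an RPKM; what its prefix stands for is not given in the sources used here) and a read count. The deposited counts were whole numbers that the authors had not normalised, as their unequal totals show. Per the submitters' processing notes, Bowtie and build mm9 were used, without versions or a named annotation; how multi-mapping reads were handled is also not stated there. The count to cRPKM ratio followed 1 factor per library within 0.381% (7690 genes above 2000 counts). No value is given for 1114 genes; symbols came from GENCODE M21 (94.9% named).

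Counts were tested in R 4.3.3 with edgeR 4.0.16: TMM, filterByExpr with a minimum count of 10 (15895 genes, all 9 members among them), and a quasi-likelihood test in which the 3 groups, and no other term, were fitted together (3 residual degrees of freedom). The SE is the log2 change divided by the square root of F; 95% intervals use the t quantile of the test's degrees of freedom. A gene was called where its p, adjusted over all genes by Benjamini-Hochberg, was under 0.05. Levels are deposited cRPKM ± SD. Alternatives were DESeq2 1.42.0, limma 3.58.1 on log2(cRPKM + 0.1) and log2(cRPKM + 1), library totals, no filter, a replicate block and leaving out each library. The edgeR script was tested on simulated data.

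Replicate differences correlated across genes between the groups (r = 0.81, 0.58 and 0.61), so the numbers were read as a pairing; this comes from the data, not the labels. Named list genes are the 4 with the smallest adjusted p at 3 h among those with a mean of at least 1 cRPKM. The members, lists and tests were chosen with earlier results of these data known. Of the genes most like Scg2 in pattern, 1 is not reported here.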

Additional observations from a re-analysis of the deposited data

Results flagged for a closer look

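The KCl effect on Pcsk1 differed between the times: its log2 change was −0.10 ± 0.34 at 0.5 h and 2.66 ± 0.36 at 3 h, and the test of 3 h against 0.5 h gave a difference of 2.75 ± 0.37 (SE; edgeR adjusted p = 0.016, higher in 2 of 2 libraries at 3 h). No other of the 9 genes passed that test without the replicate block.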

How the results depend on the processing

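Of 324 recomputed log2 changes (27 results, 12 alternatives), 268 kept direction and call, 11 lost and 14 gained a call, and 31 changed sign; no value that changed sign exceeded 0.36 in size in the reported fit, and none of those had been called. Pcsk1 at 3 h was called under all alternatives except those without an untreated library. Where counts moved, the cause was not tested, beyond the fewer samples of a fit with a library left out.

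At 3 h, the 2 members higher became 1 with library totals and with limma at either pseudocount, and the 0 lower became 1 with those, DESeq2 and the replicate block. Between the times, the 1 higher became 3 with DESeq2 and with the block, and the 0 lower became 1 with DESeq2. Leaving out 1 library gave 0 to 2 higher and 0 to 1 lower at 3 h, and 0 to 1 each way between the times.

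Over all genes, the 6 higher at 0.5 h became 35 (2 lower) with DESeq2, 13 without the filter, 10 in limma with a pseudocount of 0.1 and 13 with the block, and 0 to 6 with a library left out. At 3 h, 1384 and 1088 became 2275 and 1867 in DESeq2 and 2963 and 2955 with the block, with ranges of 34 to 1924 and 4 to 1815 with a library left out. Between the times, 1015 and 774 became 1942 and 1606, then 2477 and 2484, with ranges of 0 to 1527 and 0 to 1388.

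Chgb at 0.5 h went from −0.01 to 0.01 with library totals and in limma at both pseudocounts. With a library left out, log2 differences at 0.5 h ran from −0.60 to 0.56 for Vgf, −0.25 to 0.61 for Scg2, −0.11 to 0.01 for Scg3, −0.16 to 0.21 for Scg5, −0.21 to 0.14 for Chga, −0.25 to 0.24 for Chgb, −0.46 to 0.34 for Pcsk1 and −0.34 to 0.35 for Cpe. At 3 h they ran from −0.08 to 0.92 for Vgf, −0.18 to 0.17 for Scg5, −0.29 to 0.18 for Chgb and −0.11 to 0.65 for Cpe, and between the times from −0.03 to 0.95, −0.19 to 0.16, −0.25 to 0.19 and −0.14 to 0.67. The replicate block changed the calls of Scg3 and Pcsk2 at 3 h and of Scg2 and Scg3 between the times, and no other call of a member. A fit without 1 library assumes that the lone library of its group varies like the other groups.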
